A study of Mus musculus with 12 samples.

Results

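Rab proteins are small GTPases of the Ras superfamily, and the 46 Rab genes described here were all those measured among 11786 genes in RNA from mouse dendritic cells. Members were the rows whose Entrez identifier carried a mouse symbol of Rab, a number and at most 1 short suffix, in the GRCm38.p6 annotation. Effectors and regulators with Rab in their name, such as Rabep1 or Rab3gap1, were left out and counted separately. That annotation holds 59 Rab genes by the same rule, and the other 13, among them Rab27b, Rab4a and Rab39, were not analysed here.

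A Rab protein switches between a GDP-bound form, which a chaperone keeps soluble, and a GTP-bound form, which sits in a membrane through its prenyl tails. Exchange factors (GEFs) load GTP, GTPase-activating proteins (GAPs) end the active state, and effectors such as tethers and motor adaptors read it. Each compartment carries its own Rabs, and in dendritic cells, which take up dead cells and show their antigens to T cells, Rabs steer the phagosome, its fusion with lysosomes and the return of MHC molecules to the surface.

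Dendritic cells were grown with GM-CSF from bone marrow of mice labelled wild type or Ythdf1-/-. Ythdf1 encodes a reader of N6-methyladenosine in mRNA, and the study asked what its loss does to transcripts in dendritic cells. The 4 groups, with 2 libraries each, were wild-type cells alone, wild-type cells with tumour lysate, Ythdf1-/- labelled cells alone and Ythdf1-/- labelled cells with tumour lysate. Lysate stands for a night in culture with necrotic B16-OVA, melanoma cells of the mouse made to express ovalbumin, and the dendritic cells were purified afterwards. All cells were GM-CSF cultures, which hold macrophage-like as well as dendritic cells. The labels give no strain, age or number of mice, and do not say whether cells of several mice were pooled.

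Values are log2 levels, read as the regularized logarithm of read counts, on which a difference of 1 is a doubling. Changes are given on that scale with their standard error (SE) from limma over all 8 libraries. Adjusted p-values are Benjamini-Hochberg values over 11785 genes, and a gene was called below 0.05. Whether the 2 libraries of a group stem from different animals or dishes is unstated, so the p-values measure only how these libraries spread, which may be technical. The labelled gene did not mark the genotype: Ythdf1 was at 9.58 and 9.43 in wild-type cells alone and at 9.53 and 9.43 in the labelled cells alone, a difference of -0.03 ± 0.081 (SE, adjusted p = 0.85). With lysate it was at 9.72 and 9.58 in wild-type and 9.51 and 9.46 in KO-labelled cells, a difference of -0.16 ± 0.081 (SE, adjusted p = 0.202). Neither difference was called, so the transcript does not check the label, and these groups are named KO-labelled here.

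Markers of dendritic cells were present throughout. Cd74, the invariant chain of MHC class II, lay between 15.97 and 16.54, and Itgax (CD11c) between 10.97 and 11.52. Macrophage markers were present as well, with Csf1r between 13.43 and 13.99. Of the 12 listed B, T and NK cell markers 1 was analysed, Cd4, at 4.12 to 4.67. The neutrophil markers separated the genotypes: 11 of 12 were called lower in KO-labelled cells alone (Mpo was not) and 11 of 12 with lysate (Csf3r was not). Their summed level (the log2 of the sum of unlogged levels) ran from 14.36 to 14.53 in wild-type libraries and from 13.31 to 13.44 in KO-labelled ones.

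Rab transcripts were abundant. The median over the 46 genes of the mean level was 9.50, against 8.53 over all genes, and 29 of the 46 lay above that all-gene median. Scaled per kilobase of transcript, the median log2 level was 8.23 for the Rab genes and 6.97 over 11472 genes. On this per-length scale the top places went to Rab5c, which drives fusion of early endosomes, at 10.88, Rab7, which takes endosomes and phagosomes on to lysosomes, at 10.76, and Rab8b, of surface delivery, at 10.69. Rab14, found on endosomes and phagosomes, followed at 10.07 and Rab1a, of ER to Golgi transport, at 9.80. The transcript length used for each gene moves these places, so the leading 3 are not ordered among themselves.

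At the other end, 5 genes had a mean level under 5. They were Rab3a, a Rab of synaptic vesicles, at a mean level of 4.82, Rab38 of melanosomes at 4.76, Rab30 of the Golgi at 4.19, Rab37 of secretory granules at 4.10 and Rab36 at 4.09. The regularized logarithm shrinks genes of low count, so changes in these 5 may be understated, which cannot be checked without counts. Over the 8 libraries the median Rab gene spanned 0.404 log2 units, and the median of all genes spanned 0.391.

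**Figure D1:**
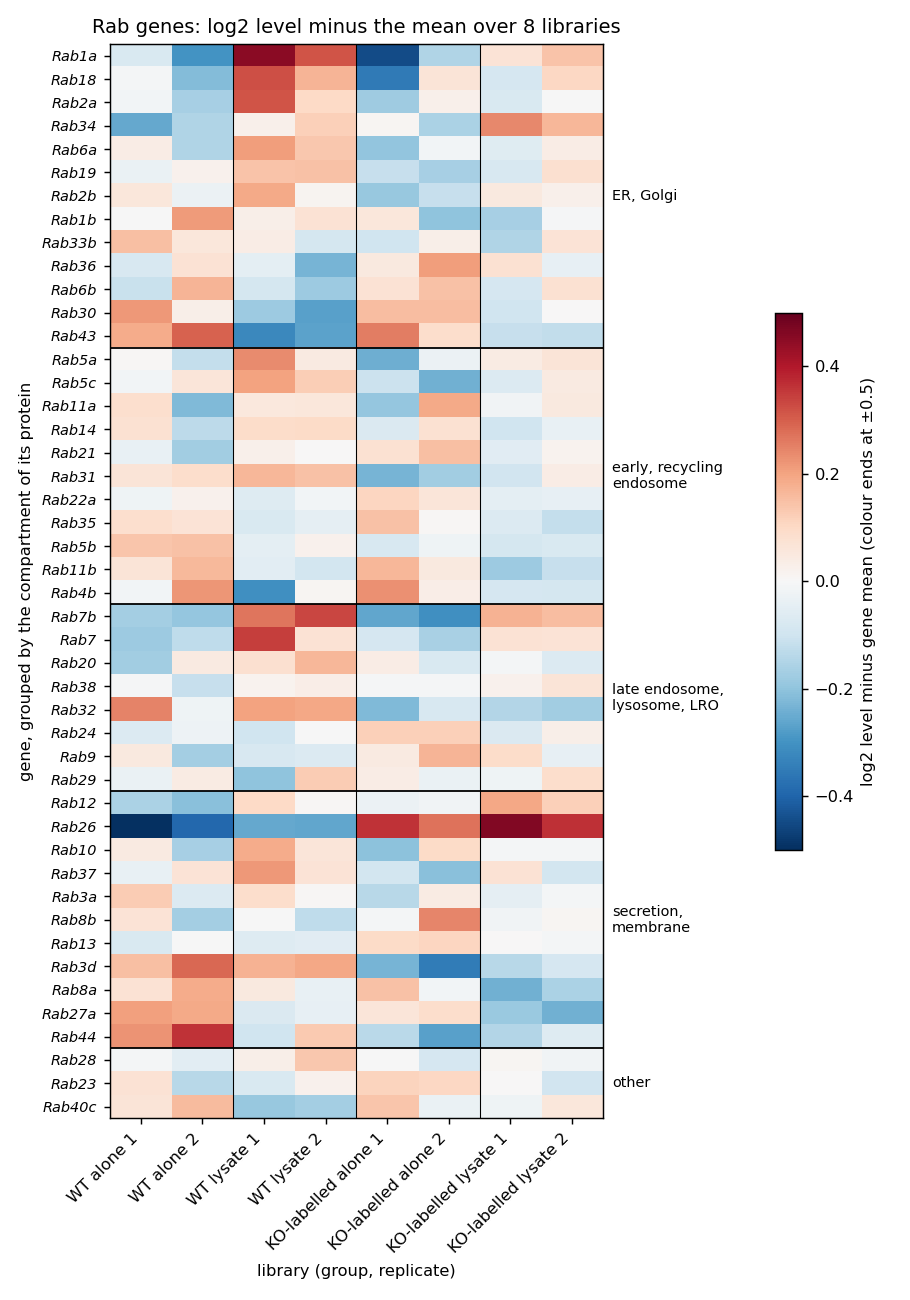
Log2 level of each of the 46 Rab genes (rows, grouped by compartment) in each of the 8 libraries (columns) minus the gene's mean, with colours ending at 0.5 log2 units on either side. Rab7b and Rab1a are red in lysate columns and blue in the others, and Rab26 is blue in the 4 wild-type columns and red in the 4 KO-labelled ones.

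Lysate in wild-type cells changed 10 of the 46 Rab genes, 6 higher and 4 lower. That is 21.7% of the Rab genes, and 21.5% of all genes were called in this comparison, so the share of Rab genes called was that of the background. By direction, 10.2% of all genes were higher and 11.3% lower. The median change was 0.05 over the Rab genes and -0.01 over all genes. In KO-labelled cells lysate changed 6 of the 46, with 2 higher and 4 lower, or 13.0% against 15.2% of all genes, and the medians were 0.01 and 0.00. Of all genes 8.28% were higher and 6.92% lower there. The wild-type count was 4 without wild-type lysate replicate 1, 5 without wild-type alone replicate 2 and 6 without either KO-labelled lysate library. The KO-labelled count was 2 without KO-labelled alone replicate 1 and 1 without either KO-labelled lysate library. No Rab gene changed by as much as 1 log2 unit in any comparison. In such bulk samples fewer cells of a type and less RNA per cell cannot be told apart.

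Markers of other cells moved with lysate too. Of the 13 melanocyte markers listed 6 were analysed, and 5 of them rose and Kit fell with lysate in each genotype. Dct, a pigment enzyme, went from 4.75 and 4.75 to 5.80 and 5.95 in wild-type cells and from 4.87 and 4.84 to 6.20 and 6.13 in KO-labelled cells. The summed level of the list ran from 11.17 to 11.24 alone and from 11.24 to 11.31 with lysate over both genotypes. That sum is carried by Kit, at 9.97 to 10.55, and Mitf, at 9.60 to 10.35, which moved in opposite directions. Dct, Tyrp1, Pmel and Slc45a2 stayed at or below 6.38 and hardly enter it, so it does not measure their rise. Of the 11 dendritic cell markers 6 fell with lysate in each genotype. Of the 15 macrophage and monocyte markers 3 rose and 6 fell in wild-type cells, and 3 rose and 1 fell in KO-labelled cells. Mrc1, the mannose receptor, rose by 0.86 ± 0.078 (SE, adjusted p = 1.14e-05) in wild-type cells, and Cx3cr1, a chemokine receptor, was lower there, at -0.84 ± 0.11 (SE, adjusted p = 0.000216). The summed level of this list ran from 16.55 to 16.66 alone and from 16.59 to 16.62 with lysate in wild-type cells, and from 16.40 to 16.52 and from 16.45 to 16.48 in KO-labelled cells. Of the 12 neutrophil markers 1 rose and 4 fell in wild-type cells, and 1 rose and 2 fell in KO-labelled cells. The part of melanoma RNA or of these markers in the Rab changes was not tested.

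Among the Rabs of the late endosome and lysosome, Rab7b rose in both genotypes. Rab7b serves transport from late endosomes to the Golgi and, in mouse macrophages, the breakdown of Toll-like receptors. It was at 11.68 and 11.65 in wild-type cells alone and at 12.12 and 12.18 with lysate. In KO-labelled cells it was at 11.59 and 11.54 alone and at 12.02 and 12.00 with lysate. All 4 lysate libraries stood above all 4 others. The rise was 0.48 ± 0.063 (SE, adjusted p = 0.00023) in wild-type cells, 1.40-fold, and 0.45 ± 0.063 (SE, adjusted p = 0.00049) in KO-labelled cells, 1.36-fold.

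Rab7, its better known relative, was at 11.69 and 11.74 in wild-type cells alone and at 12.21 and 11.94 with lysate. Both lysate libraries were above both others, and they stood further apart than those did. The rise of 0.36 ± 0.083 (SE, adjusted p = 0.00781) was no longer called without wild-type lysate replicate 1 (adjusted p = 0.0892, change 0.23). In KO-labelled cells Rab7 was at 11.79 and 11.71 alone and at 11.94 and 11.93 with lysate, a difference of 0.19 ± 0.083 (SE, adjusted p = 0.137) that was not called.

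The other 6 genes of this class were not called with lysate in either genotype. Once the trend on transcript GC content and length was removed, Rab20 was called in wild-type cells, and the rise of Rab7 was called in KO-labelled cells too. With that trend removed 29.6% (wild type) and 26.2% (KO-labelled) of all genes were called. Rab32 and Rab38, the pair that carries pigment enzymes to melanosomes, gave values beside the melanoma markers. Rab38 lay between 4.64 and 4.82 in all 8 libraries, with a lysate difference of 0.088 ± 0.082 (SE, adjusted p = 0.477) in wild-type and 0.049 ± 0.082 (SE, adjusted p = 0.726) in KO-labelled cells. Its lysate libraries, at 4.78 to 4.82, all lay above the others, at 4.64 to 4.75. Of all genes 60.8% (wild type) and 59.1% (KO-labelled) had groups that did not overlap. For Rab32 the lysate difference was 0.082 ± 0.091 (SE, adjusted p = 0.556) and -0.0098 ± 0.091 (SE, adjusted p = 0.952) in the same order. Rab9, of transport from late endosomes to the Golgi, Rab20 of phagosomes, Rab24 of autophagy and Rab29 of the Golgi and lysosome had lysate differences between -0.14 and 0.19.

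In the early secretory pathway, Rab1a rose in both genotypes. Rab1a is needed for traffic from the endoplasmic reticulum to the Golgi and for the start of autophagy. It was at 11.13 and 10.91 in wild-type cells alone and at 11.66 and 11.52 with lysate. In KO-labelled cells it was at 10.76 and 11.06 alone and 11.27 and 11.35 with lysate. Lysate libraries lay above the others within each genotype, and the wild-type lysate pair was the highest of all. The rise was 0.57 ± 0.10 (SE, adjusted p = 0.00166) in wild-type cells, 1.48-fold. It was 0.40 ± 0.10 (SE, adjusted p = 0.0159) in KO-labelled cells, 1.32-fold. The KO-labelled call was lost without KO-labelled alone replicate 1 (adjusted p = 0.106) and without KO-labelled lysate replicate 1 (0.0942) or 2 (0.144). Its close paralogue Rab1b differed with lysate by -0.056 ± 0.097 (SE, adjusted p = 0.721) and -0.013 ± 0.097 (SE, adjusted p = 0.939).

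Rab43 moved the opposite way and fell in both genotypes. Rab43 works at the Golgi, and in mice it is needed by CD8a+ dendritic cells for cross-presentation, the display of taken-up antigen on MHC class I. It was at 11.70 and 11.80 in wild-type cells alone and at 11.19 and 11.24 with lysate, and in KO-labelled cells at 11.77 and 11.60 alone and 11.39 and 11.39 with lysate. All 4 lysate libraries lay below all 4 libraries without it. The change was -0.53 ± 0.073 (SE, adjusted p = 0.000319) in wild-type cells, a level 1.45-fold lower, and -0.29 ± 0.073 (SE, adjusted p = 0.0171) in KO-labelled cells, 1.22-fold lower. The KO-labelled call was lost without KO-labelled alone replicate 1 (adjusted p = 0.152) and without KO-labelled lysate replicate 1 (0.127) or 2 (0.12).

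A further 3 Golgi and ER genes were called in wild-type cells. Rab2a, of traffic between ER and Golgi, was at 10.21 and 10.05 alone and 10.53 and 10.32 with lysate, and rose by 0.30 ± 0.093 (SE, adjusted p = 0.0371). In KO-labelled cells it was at 10.04 and 10.25 alone and 10.14 and 10.22 with lysate, a difference of 0.038 ± 0.093 (SE, adjusted p = 0.817), and the groups overlapped. The Rab2a call was lost without wild-type alone replicate 2 (adjusted p = 0.26), wild-type lysate replicate 1 (0.29), KO-labelled lysate replicate 1 (0.0702) or KO-labelled lysate replicate 2 (0.0702), and with no mean-variance trend (0.0537). Its paralogue Rab2b differed by 0.089 ± 0.09 (SE, adjusted p = 0.513) in wild-type cells. The wild-type and KO-labelled lysate effects on Rab2a were not shown to differ, with a difference of -0.26 ± 0.13 (SE, adjusted p = 0.643).

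Rab34, which positions lysosomes and serves cilia, was at 6.88 and 6.98 in wild-type cells alone and 7.16 and 7.25 with lysate, a rise of 0.28 ± 0.093 (SE, adjusted p = 0.0499) that just passed the threshold. In KO-labelled cells it was at 7.15 and 6.98 alone and 7.37 and 7.30 with lysate, a difference of nearly the same size, 0.28 ± 0.093 (SE, adjusted p = 0.0619), that just missed it. Lysate libraries stood above the others in both genotypes, and the KO-labelled rise was called once the GC and length trend was removed (limma, adjusted p = 0.00219). The wild-type call was lost without any 1 of the 4 wild-type libraries or the 2 KO-labelled lysate libraries, with adjusted p-values of 0.197 and 0.106 (wild-type alone replicates 1 and 2), 0.104 and 0.193 (wild-type lysate) and 0.0745 and 0.0746 (KO-labelled lysate). It was also lost after quantile normalization (0.0548).

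Rab30, a Golgi Rab, was among the lowest in level, at 4.41 and 4.22 in wild-type cells alone and 4.01 and 3.92 with lysate. The lysate libraries were lower, and the change was -0.35 ± 0.089 (SE, adjusted p = 0.0142). It was not called without wild-type alone replicate 1 (adjusted p = 0.109) or wild-type lysate replicate 2 (0.0849). In KO-labelled cells Rab30 was at 4.34 and 4.34 alone and 4.09 and 4.19 with lysate, a difference of -0.20 ± 0.089 (SE, adjusted p = 0.144). That fall was called once the GC and length trend was removed (limma, adjusted p = 0.0201). Of the rest of this class, Rab18, which sits on lipid droplets and the ER, came nearest to the threshold, with a wild-type lysate difference of 0.36 ± 0.12 (SE, adjusted p = 0.0512). It was called once the GC and length trend was removed (limma, adjusted p = 0.0178).

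In the secretory class, Rab27a fell in both genotypes. Rab27a docks secretory granules and lysosome-related organelles at the plasma membrane, and in mouse dendritic cells it brings the NADPH oxidase to phagosomes. It was at 9.32 and 9.30 in wild-type cells alone and 9.04 and 9.08 with lysate, and in KO-labelled cells at 9.18 and 9.20 alone and 8.93 and 8.88 with lysate. All 4 lysate libraries were lower than the 4 others. The change was -0.25 ± 0.072 (SE, adjusted p = 0.0244) in wild-type and -0.29 ± 0.072 (SE, adjusted p = 0.0176) in KO-labelled cells. Each of these calls was lost without any 1 of the 4 libraries compared, with adjusted p-values for wild type of 0.0808 and 0.106 (alone replicates 1 and 2) and 0.116 and 0.0572 (lysate replicates 1 and 2). For KO-labelled cells they were 0.0554 and 0.0533 (alone) and 0.0894 and 0.142 (lysate).

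Rab12, which takes transferrin receptor from recycling endosomes to lysosomes, was at 9.51 and 9.46 in wild-type cells alone and 9.77 and 9.68 with lysate, a rise of 0.23 ± 0.072 (SE, adjusted p = 0.0341). In KO-labelled cells it was at 9.64 and 9.65 alone and 9.86 and 9.79 with lysate, a difference of 0.18 ± 0.072 (SE, adjusted p = 0.112). Both pairs of groups were apart, and the KO-labelled rise was called with the GC and length trend removed (limma, adjusted p = 0.0242). The wild-type call was lost without wild-type alone replicate 1 (adjusted p = 0.0619) or 2 (0.189), wild-type lysate replicate 1 (0.191), KO-labelled lysate replicate 1 (0.0616) or 2 (0.0615), and when only the 4 wild-type libraries were fitted (0.0613).

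Rab8a, which delivers cargo to the plasma membrane and the cilium, fell with lysate in KO-labelled cells, from 11.28 and 11.12 to 10.89 and 10.97, a change of -0.26 ± 0.076 (SE, adjusted p = 0.0331). In wild-type cells it was at 11.20 and 11.32 alone and 11.18 and 11.09 with lysate, a difference of -0.12 ± 0.076 (SE, adjusted p = 0.268), and both lysate values lay under both others. The KO-labelled call was lost without KO-labelled alone replicate 1 (adjusted p = 0.235), KO-labelled lysate replicate 1 (0.251) or 2 (0.11), and with no mean-variance trend (0.0574). Rab8b, the paralogue with the highest mean level of all Rab genes, 12.93, differed by -0.12 ± 0.094 (SE, adjusted p = 0.416) in KO-labelled cells. With the GC and length trend removed, Rab8b was called lower with lysate in KO-labelled cells (limma, adjusted p = 0.00211) and in wild-type cells (0.0324).

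By limma, 0 of the 11 genes placed in the class of early and recycling endosomes were called with lysate in wild-type cells. That stands beside 21.5% of all genes. It depends on the placing, since Rab12, called in wild-type cells, was put in the secretory class. Rab11b was called in KO-labelled cells, beside 15.2% of all genes. With the trend on transcript GC content and length removed, Rab5b, Rab5c and Rab11b were called in wild-type cells and Rab5c, Rab11b, Rab14, Rab21 and Rab31 in KO-labelled cells. Of all genes 29.6% (wild type) and 26.2% (KO-labelled) were called with that trend removed. Rab11b returns receptors from recycling endosomes to the surface. It was at 11.10 and 10.98 in KO-labelled cells alone and 10.75 and 10.81 with lysate, a change of -0.26 ± 0.071 (SE, adjusted p = 0.0265). In wild-type cells it was at 11.00 and 11.09 alone and 10.88 and 10.84 with lysate, a difference of -0.19 ± 0.071 (SE, adjusted p = 0.0771). The lysate values were the lower ones in both genotypes. The call was lost without KO-labelled alone replicate 1 (adjusted p = 0.189) and without KO-labelled lysate replicate 1 (0.214) or 2 (0.106). Its paralogue Rab11a, the main Rab of recycling endosomes, differed by 0.019 ± 0.11 (SE, adjusted p = 0.925). The 3 Rab5 genes, of early endosomes, differed by 0.20 ± 0.091 (SE, adjusted p = 0.14) for Rab5a, -0.16 ± 0.065 (SE, adjusted p = 0.102) for Rab5b and 0.14 ± 0.073 (SE, adjusted p = 0.194) for Rab5c in wild-type cells.

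The last gene called with lysate in wild-type cells was Rab40c, whose protein has a SOCS box and joins a ubiquitin ligase. It was at 8.14 and 8.23 alone and 7.89 and 7.91 with lysate, a change of -0.29 ± 0.088 (SE, adjusted p = 0.0314). In KO-labelled cells it was at 8.22 and 8.04 alone and 8.06 and 8.13 with lysate, a difference of -0.034 ± 0.088 (SE, adjusted p = 0.823), and the groups overlapped. The wild-type call was lost without wild-type alone replicate 2 (adjusted p = 0.208), wild-type lysate replicate 1 (0.132) or 2 (0.0856), and KO-labelled lysate replicate 1 (0.0538) or 2 (0.0539).

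**Figure D2:**
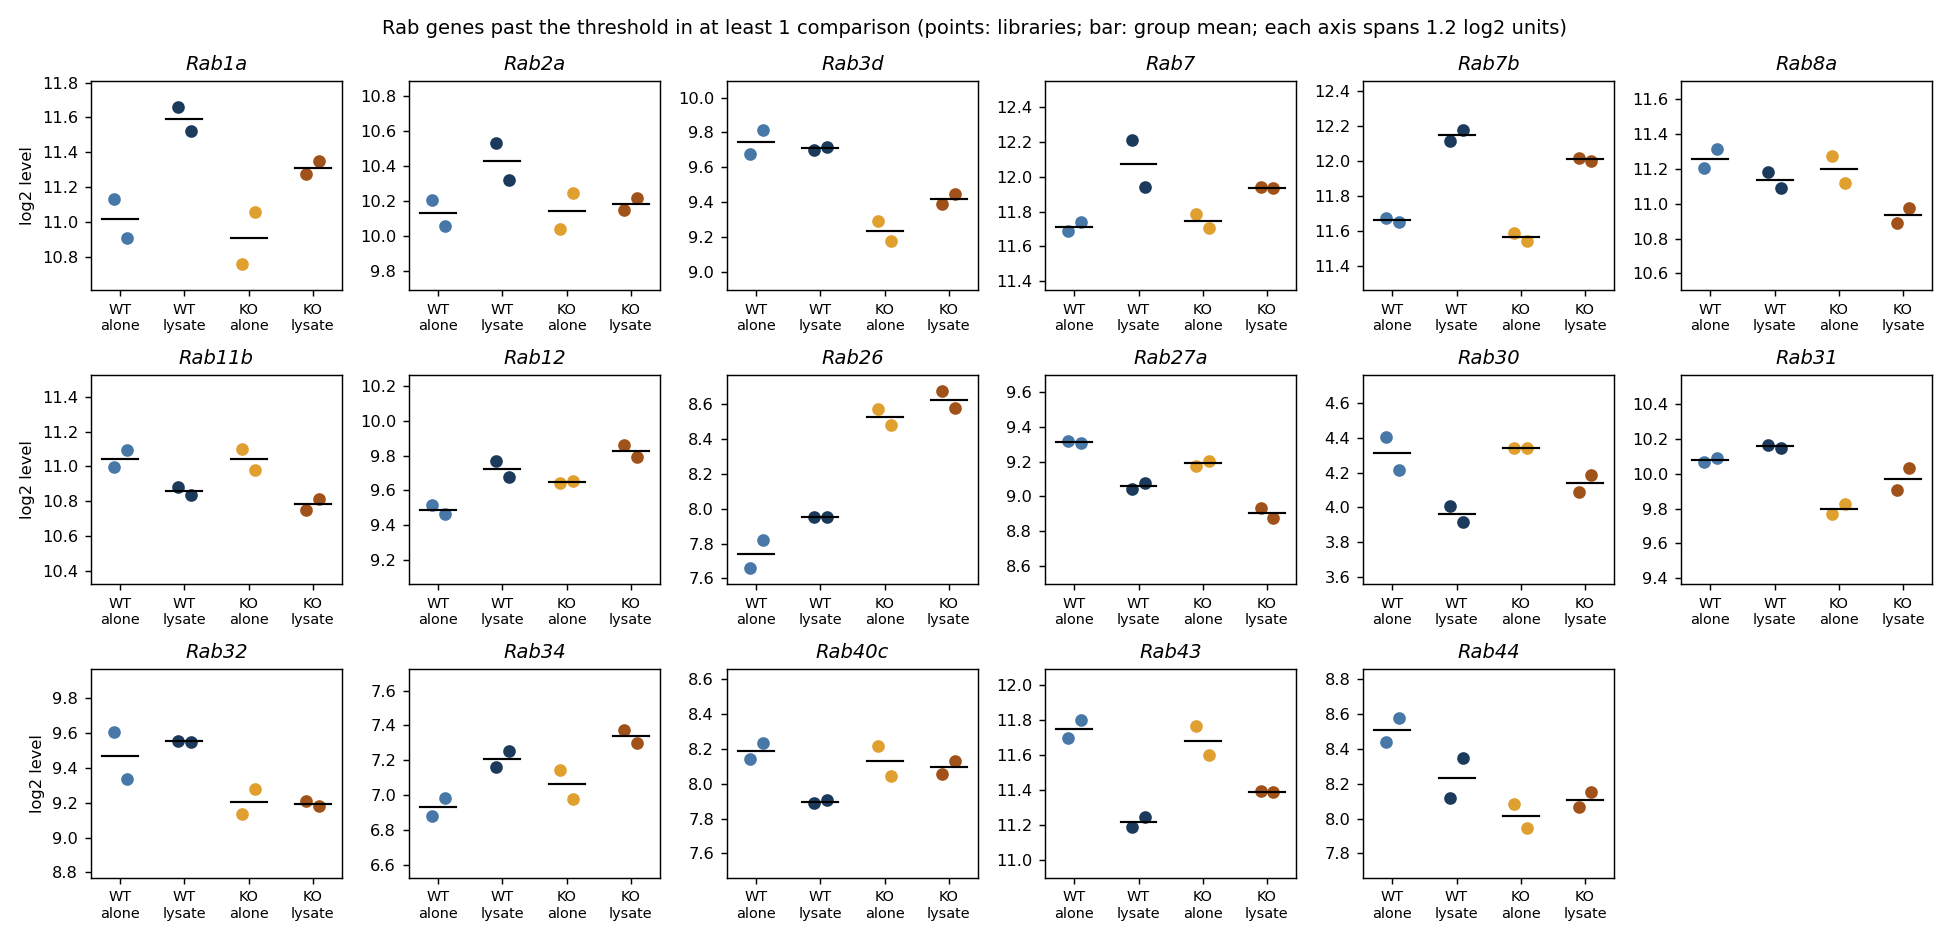
Log2 level of the Rab genes called in at least 1 comparison, 1 panel a gene, with a point for each library, a bar for each group mean and axes of equal span. The lysate libraries of Rab7b lie at 12.00 to 12.18, above those without lysate, and the KO-labelled libraries of Rab26 lie above the wild-type ones.

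Set side by side, the lysate effects of the 2 genotypes, which share no library, had the same sign for 38 of the 46 Rab genes (82.6%), against 75.6% of all genes. Over the 46 genes their Pearson correlation was 0.78 and their Spearman correlation 0.74, and the genes share libraries and culture. Rab7b, Rab1a, Rab43 and Rab27a were called in both, the same way, which is 40% of the wild-type calls and 66.7% of the KO-labelled calls. Over all genes these shares were 44.7% and 63.2%. Rab genes whose libraries did not overlap numbered 19 higher and 10 lower in wild-type cells and 13 higher and 12 lower in KO-labelled cells. That is 63.0% and 54.3% of the Rab genes, and 60.8% and 59.1% of all genes were apart in this way. Of all genes 28.5% were apart and higher and 32.3% apart and lower in wild-type cells, and 28.9% and 30.2% in KO-labelled cells.

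**Figure D3:**
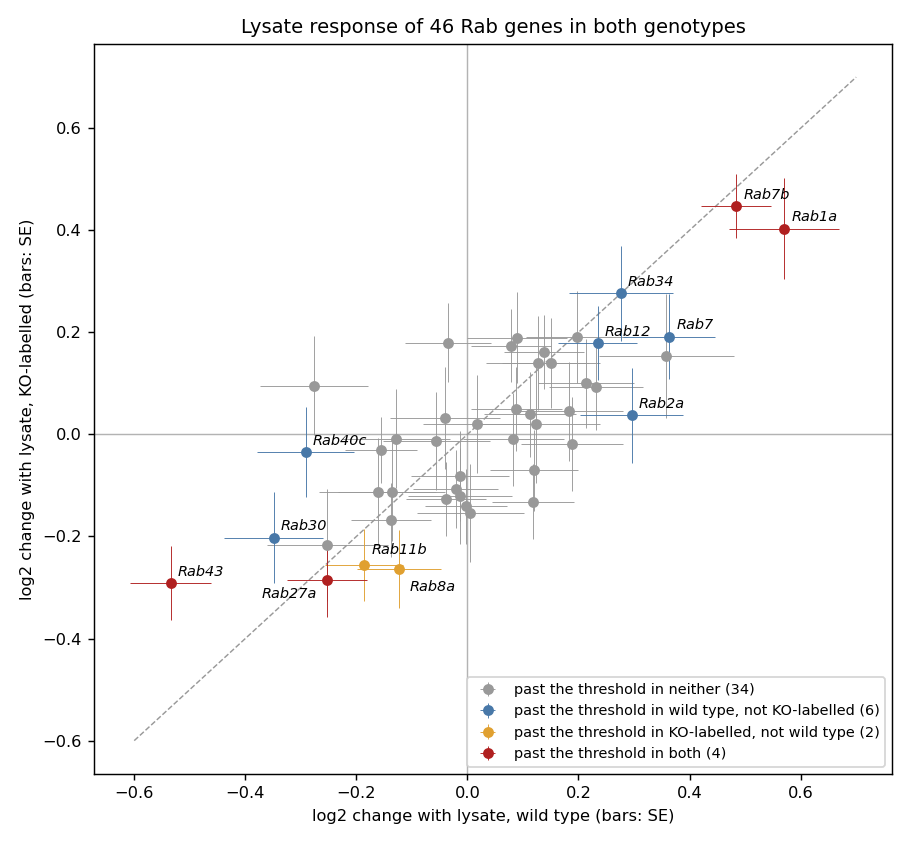
Log2 change with lysate in wild-type cells (x axis) and in KO-labelled cells (y axis) for each of the 46 Rab genes, with SE bars, a dashed line of equal change and colour for the calls. Rab7b and Rab1a lie far up on the right, and Rab43 and Rab27a on the lower left.

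The difference of the lysate effects between genotypes was called for none of the 46 Rab genes by limma, with 3 of them at an unadjusted p under 0.05 and a smallest adjusted p of 0.468. Over all genes it was called for 0.11%. The ends of the range were Rab44 at 0.37 ± 0.14 (SE, adjusted p = 0.468) and Rab2a at -0.26 ± 0.13 (SE, adjusted p = 0.643). No gene above that was called in 1 genotype and not in the other was thereby shown to respond differently.

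KO-labelled and wild-type cells alone differed in 4 of the 46 Rab genes, 1 higher and 3 lower in KO-labelled cells. That is 8.70% of the Rab genes, against 16.2% of all genes (7.02% higher and 9.23% lower). With lysate 3 differed, 1 higher and 2 lower, or 6.52% against 12.9% of all genes (7.44% higher and 5.45% lower). The count with lysate was 1 without any 1 of the 4 lysate libraries, 5 without either KO-labelled alone library and 7 when only the 4 lysate libraries were fitted. The median difference alone was 0.00 over the Rab genes, and with lysate it was -0.07 over the Rab genes and -0.01 over all genes. Rab genes whose libraries did not overlap were 7 higher and 12 lower alone (41.3%, against 52.7% of all genes) and 10 higher and 21 lower with lysate (67.4%, against 60.6%). Over all genes, 26.4% were apart and higher and 26.4% apart and lower alone, and 29.6% and 31.0% with lysate. Most neutrophil markers were called lower in KO-labelled cells in both treatments, as given above. Of 15 macrophage markers 7 were lower in KO-labelled cells alone and 3 with lysate, and of 11 dendritic cell markers 5 were higher and 1 lower alone and 6 higher with lysate. The part of these cells in the Rab differences was not tested.

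Rab26 was higher in KO-labelled cells in both treatments, the largest genotype difference among the Rab genes. Rab26 serves the maturation of secretory granules and, in neurons, the delivery of synaptic vesicles to autophagy. It was at 7.66 and 7.82 in wild-type and 8.57 and 8.48 in KO-labelled cells alone, and at 7.95 and 7.95 in wild-type and 8.68 and 8.58 in KO-labelled cells with lysate. All 4 KO-labelled libraries stood above all 4 wild-type ones, with a wide gap. The difference was 0.79 ± 0.086 (SE, adjusted p = 6.76e-05) alone, 1.72-fold, and 0.67 ± 0.086 (SE, adjusted p = 0.000446) with lysate, 1.59-fold. It was called under every alternative tried.

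Rab3d was lower in KO-labelled cells in both treatments. Rab3d sits on secretory granules, as in mast cells and the exocrine pancreas. It was at 9.68 and 9.81 in wild-type and 9.29 and 9.18 in KO-labelled cells alone, and at 9.70 and 9.72 in wild-type and 9.39 and 9.44 in KO-labelled cells with lysate. The 4 KO-labelled libraries lay below the 4 wild-type ones. The difference was -0.51 ± 0.077 (SE, adjusted p = 0.000627) alone, 1.42-fold lower, and -0.29 ± 0.077 (SE, adjusted p = 0.025) with lysate, 1.23-fold lower. The call with lysate was lost when wild-type lysate replicate 1 (adjusted p = 0.0893) or 2 (0.105) was left out, and without KO-labelled lysate replicate 1 (0.228) or 2 (0.0985). Its paralogue Rab3a, at a low level, differed by -0.079 ± 0.096 (SE, adjusted p = 0.649) alone and -0.075 ± 0.096 (SE, adjusted p = 0.651) with lysate.

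Rab44, a large Rab with EF-hand motifs that acts in mast cell granules in mice, was lower in KO-labelled cells alone. It was at 8.44 and 8.58 in wild-type and 8.08 and 7.95 in KO-labelled cells alone, a difference of -0.49 ± 0.097 (SE, adjusted p = 0.0037), 1.41-fold lower. With lysate it was at 8.12 and 8.35 in wild-type and 8.07 and 8.15 in KO-labelled cells, a difference of -0.12 ± 0.097 (SE, adjusted p = 0.435), and the groups overlapped. In wild-type cells its lysate difference was -0.28 ± 0.097 (SE, adjusted p = 0.0581). The call alone held under every alternative tried.

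Rab31, of traffic between the Golgi and endosomes, was lower in KO-labelled cells alone. It was at 10.06 and 10.09 in wild-type and 9.77 and 9.83 in KO-labelled cells alone, a difference of -0.28 ± 0.072 (SE, adjusted p = 0.0166). With lysate it was at 10.17 and 10.15 in wild-type and 9.91 and 10.04 in KO-labelled cells, a difference of -0.19 ± 0.072 (SE, adjusted p = 0.104). KO-labelled libraries were the lower ones throughout, and removal of the GC and length trend made the difference with lysate a call too (limma, adjusted p = 0.0266). The call was lost without wild-type alone replicate 1 (adjusted p = 0.0585) or 2 (0.0838) or KO-labelled alone replicate 1 (0.076), and when only the 4 libraries alone were fitted (0.0507).

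Rab32, a Rab of lysosome-related organelles and phagosomes, was lower in KO-labelled cells with lysate. It was at 9.56 and 9.55 in wild-type and 9.21 and 9.18 in KO-labelled cells with lysate, a difference of -0.36 ± 0.091 (SE, adjusted p = 0.0217). Alone it was at 9.61 and 9.34 in wild-type and 9.13 and 9.28 in KO-labelled cells, a difference of -0.27 ± 0.091 (SE, adjusted p = 0.0648), and the groups did not overlap there either. With the GC and length trend removed, Rab32 was called alone as well (limma, adjusted p = 0.0104). The call was lost when wild-type lysate replicate 1 (adjusted p = 0.099) or 2 (0.0906) was left out, and without KO-labelled lysate replicate 1 (0.164) or 2 (0.127).

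Of the 13 genes of the ER and Golgi class 0 were called between genotypes by limma in either treatment, beside the 16.2% and 12.9% of all genes given above. With the trend on transcript GC content and length removed, Rab1b was called alone and Rab1a, Rab1b and Rab18 with lysate, each lower in KO-labelled cells. Of all genes 27.9% (alone) and 23.7% (with lysate) were called with that trend removed. Just outside the threshold alone were Rab5b, of early endosomes, at -0.19 ± 0.065 (SE, adjusted p = 0.0591) and Rab21, which carries integrins, at 0.22 ± 0.073 (SE, adjusted p = 0.0602). With lysate the nearest were Rab1a at -0.28 ± 0.10 (SE, adjusted p = 0.0821) and Rab8a at -0.20 ± 0.076 (SE, adjusted p = 0.0952). Removal of the trend also made calls of Rab5b and Rab21 alone (limma, adjusted p = 0.00664 and 0.00359) and of Rab8a with lysate (0.0112). The genotype differences in the 2 treatments share no library. They had the same sign for 34 of the 46 Rab genes (73.9%), against 71.4% of all genes, with a Pearson correlation of 0.74 and a Spearman correlation of 0.60 over the 46. Rab26 and Rab3d were called in both, which is 50% of the calls alone and 66.7% of those with lysate. Over all genes these shares were 48.3% and 60.8%.

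**Figure D4:**
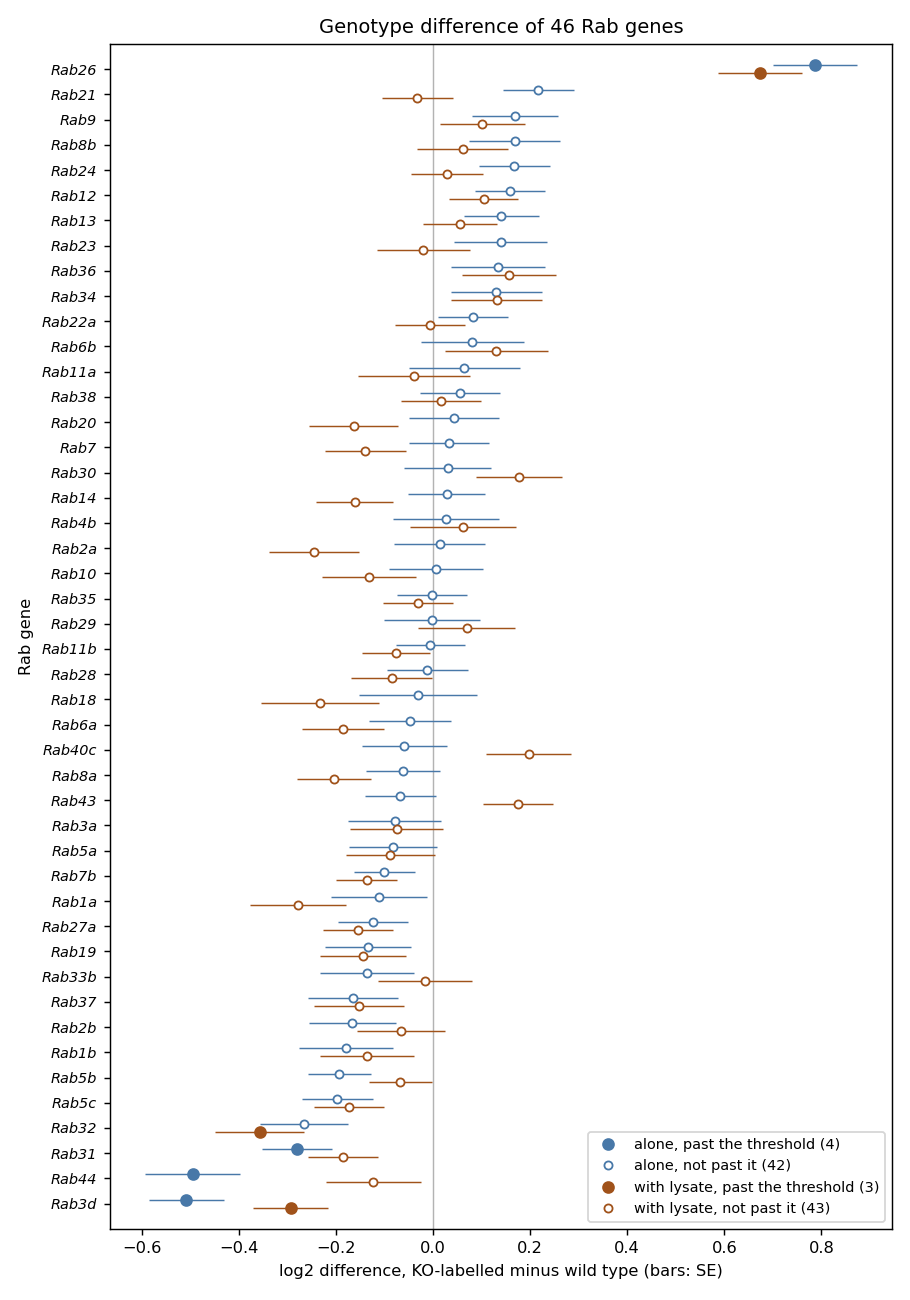
Log2 difference, KO-labelled minus wild type, of each of the 46 Rab genes alone and with lysate, with SE bars, filled points past the threshold and open points not past it, sorted by the difference alone. Rab26 stands apart at the top at 0.79 and 0.67, and Rab3d and Rab44 are at the bottom.

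The machinery around the Rabs was counted over 4 lists, to be read beside the 21.5% (wild type) and 15.2% (KO-labelled) of all genes called with lysate, and the 16.2% (alone) and 12.9% (with lysate) called between genotypes. Of 15 genes for prenylation and chaperoning, lysate raised 3 and lowered 2 in wild-type cells (33.3% called) and raised 2 in KO-labelled cells (13.3%). Chm, the escort protein that presents Rabs for prenylation, rose by 0.41 ± 0.10 (SE, adjusted p = 0.012) in wild-type and 0.33 ± 0.10 (SE, adjusted p = 0.0402) in KO-labelled cells. Yipf6, a Golgi membrane protein, rose by 0.39 ± 0.085 (SE, adjusted p = 0.00599) and 0.30 ± 0.085 (SE, adjusted p = 0.0317). The subunits of Rab geranylgeranyl transferase were called in opposite directions in wild-type cells, Rabggtb at 0.24 ± 0.078 (SE, adjusted p = 0.0472) and Rabggta at -0.34 ± 0.08 (SE, adjusted p = 0.00993).

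Of 35 GEFs, lysate raised 5 and lowered 6 in wild-type cells (31.4% called) and raised 4 and lowered 1 in KO-labelled cells (14.3%). Dennd4c rose in both, by 0.44 ± 0.089 (SE, adjusted p = 0.00396) and 0.46 ± 0.089 (SE, adjusted p = 0.00408), as did Rin2, which acts on Rab5, by 0.35 ± 0.065 (SE, adjusted p = 0.00265) and 0.30 ± 0.065 (SE, adjusted p = 0.00802). Denn2b, also called St5, fell in both, at -0.45 ± 0.092 (SE, adjusted p = 0.00428) and -0.38 ± 0.092 (SE, adjusted p = 0.015). Rab3il1, which acts on Rab8, rose by 0.47 ± 0.084 (SE, adjusted p = 0.00193) in wild-type cells, where Madd, which acts on Rab3 and Rab27, fell, at -0.35 ± 0.076 (SE, adjusted p = 0.00567). In KO-labelled against wild-type cells 4 were higher and 3 lower alone (20% called, against 16.2% of all genes), and 5 were higher and 0 lower with lysate (14.3%, against 12.9%). Dennd6b differed most, by 0.44 ± 0.097 (SE, adjusted p = 0.00724) alone and 0.55 ± 0.097 (SE, adjusted p = 0.00301) with lysate, and Rin3 was lower, at -0.41 ± 0.075 (SE, adjusted p = 0.00228) alone.

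Of 39 GAPs, lysate raised 3 and lowered 5 in wild-type cells (20.5% called) and raised 4 and lowered 2 in KO-labelled cells (15.4%). Sgsm1 rose by 0.55 ± 0.089 (SE, adjusted p = 0.000949) and 0.58 ± 0.089 (SE, adjusted p = 0.000887), and Tbc1d2, which acts on Rab7, by 0.29 ± 0.095 (SE, adjusted p = 0.047) and 0.60 ± 0.095 (SE, adjusted p = 0.00118). Tbc1d10c, a GAP of lymphocytes and myeloid cells, fell, with changes of -0.48 ± 0.094 (SE, adjusted p = 0.00326) and -0.51 ± 0.094 (SE, adjusted p = 0.00298). In KO-labelled cells 7 GAPs were higher and 3 lower alone (25.6% called, against 16.2% of all genes), and 5 higher and 0 lower with lysate (12.8%, against 12.9%). Tbc1d8 was higher by 0.49 ± 0.068 (SE, adjusted p = 0.000327) and 0.47 ± 0.068 (SE, adjusted p = 0.001), and Tbc1d10c by 0.39 ± 0.094 (SE, adjusted p = 0.0117) and 0.37 ± 0.094 (SE, adjusted p = 0.0226).

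Of 37 effectors, lysate raised 6 and lowered 2 in wild-type cells (21.6% called) and raised 7 and lowered 3 in KO-labelled cells (27.0%). Myo5a, the myosin that Rab27a recruits to melanosomes, was at 11.85 and 11.76 in wild-type cells alone and 12.44 and 12.34 with lysate, and at 11.81 and 11.91 alone and 12.48 and 12.39 with lysate in KO-labelled cells. Every lysate library was above every other, and the rise was 0.59 ± 0.071 (SE, adjusted p = 0.000129) and 0.57 ± 0.071 (SE, adjusted p = 0.00019). Rilpl1, which binds Rab8 and Rab10 once they are phosphorylated, rose by 0.60 ± 0.097 (SE, adjusted p = 0.000949) and 0.49 ± 0.097 (SE, adjusted p = 0.00452), and Uso1, the tether that Rab1 recruits, by 0.38 ± 0.067 (SE, adjusted p = 0.00161) and 0.29 ± 0.067 (SE, adjusted p = 0.0112). Rab11fip1, an adaptor of Rab11, fell, with changes of -0.30 ± 0.068 (SE, adjusted p = 0.00801) and -0.22 ± 0.068 (SE, adjusted p = 0.0494). Lrrk1, counted here only by its place on the list, fell by more, at -0.44 ± 0.076 (SE, adjusted p = 0.00149) and -0.27 ± 0.076 (SE, adjusted p = 0.0311). In KO-labelled cells 5 effectors were higher and 1 lower alone (16.2% called, the share of all genes), and 7 higher and 0 lower with lysate (18.9%, against 12.9%), with Lrrk1 at 0.34 ± 0.076 (SE, adjusted p = 0.00788) and 0.52 ± 0.076 (SE, adjusted p = 0.00104).

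Over the 126 machinery genes together, 18 were higher and 1 lower in KO-labelled cells with lysate, with a median difference of 0.03. That is 15.1% called, against 12.9% of all genes (7.44% higher and 5.45% lower). Alone, 17 were higher and 7 lower (19.0%, against 16.2%). With lysate in wild-type cells 17 rose and 15 fell (25.4%, against 21.5%), and in KO-labelled cells 17 rose and 6 fell (18.3%, against 15.2%). None of the 126 was called in the difference of the lysate effects.

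Transcript GC content moved with the lysate change in wild-type cells. Over the 46 Rab genes the Pearson correlation of the 2 was -0.30 and the Spearman correlation -0.29, and over all 11472 genes with a transcript the Spearman correlation was -0.39. The Rab transcripts had a median GC content of 48.9%, against 50.2%. After the trend on GC content and length was removed, the correlation over the Rab genes was 0.05 by Pearson and 0.03 by Spearman. For the lysate change in KO-labelled cells the Pearson correlation over the Rab genes was -0.06 before and 0.25 after removal. It was -0.04 before and -0.10 after for the genotype difference alone, and 0.28 before and 0.09 after for that with lysate. For the difference of the lysate effects it was 0.41 before and 0.28 after, so that removal left a correlation there. Calls then numbered 17 of the 46 with lysate in wild-type cells (37.0%, against 29.6% of all genes) and 16 in KO-labelled cells (34.8%, against 26.2%). Between genotypes they numbered 12 alone (26.1%, against 27.9%) and 12 with lysate (26.1%, against 23.7%). All 23 calls described above were kept. Rab5c, Rab8b, Rab7 and Rab12 were among the genes called in addition, and the interaction still had 0 Rab genes called.

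**Figure D5:**
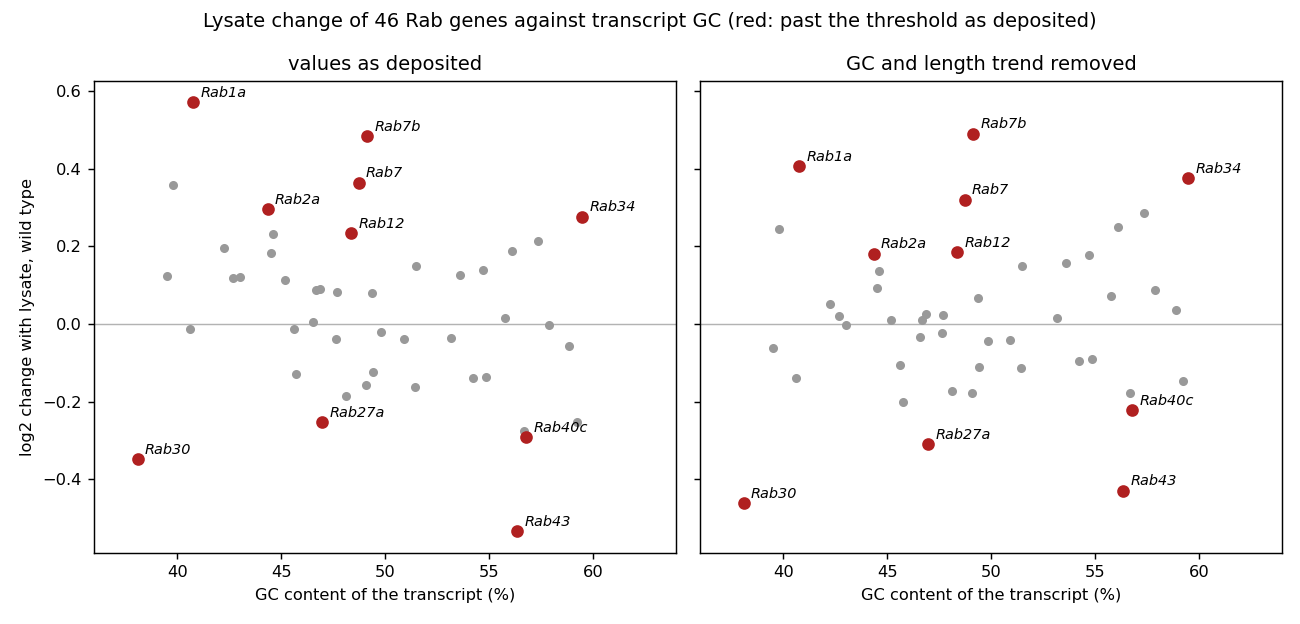
Log2 change with lysate in wild-type cells of the 46 Rab genes (y axis) against the GC content of the transcript in percent (x axis), with the deposited values on the left and after removal of the GC and length trend on the right. The 10 genes called on the deposited values are red, and the tilt on the left (Pearson -0.30) is close to flat on the right (0.05).

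Promoter windows, 250 bases before to 50 after the start, were at hand from RefSeq (GRCm38.p6) for 37 of the 46 genes. Those without a window include Rab7b, Rab26 and Rab44. The windows of 4 genes that the results turn on are printed 5′ to 3′ on the gene's strand, 2 that rose with lysate, 1 that fell and 1 that was lower in KO-labelled cells. Capitals mark matches, on either strand, to the GC box, which reads GGGCGG, to the CCAAT box, to the E-box of the lysosomal factors Tfeb and Mitf, which reads CACGTG, and to the core of the antioxidant response element, which reads TGACNNNGC.
Rab1a, chr11:20201162-20201461, plus strand: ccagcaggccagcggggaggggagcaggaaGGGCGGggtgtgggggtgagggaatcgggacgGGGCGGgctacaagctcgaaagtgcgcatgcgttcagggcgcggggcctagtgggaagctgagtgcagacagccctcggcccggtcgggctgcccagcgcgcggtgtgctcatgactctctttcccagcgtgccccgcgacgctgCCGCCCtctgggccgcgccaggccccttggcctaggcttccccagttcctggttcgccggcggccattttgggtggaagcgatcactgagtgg
Rab7, chr6:88045221-88045520, minus strand, 1 of 2 windows: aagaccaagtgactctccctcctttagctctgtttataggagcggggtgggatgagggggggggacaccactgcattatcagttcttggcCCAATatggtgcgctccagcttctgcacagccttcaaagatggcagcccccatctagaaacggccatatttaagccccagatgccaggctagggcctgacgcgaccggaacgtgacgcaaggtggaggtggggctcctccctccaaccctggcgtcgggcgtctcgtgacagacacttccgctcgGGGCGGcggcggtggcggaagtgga
Rab43, chr6:87812115-87812414, minus strand, 1 of 4 windows: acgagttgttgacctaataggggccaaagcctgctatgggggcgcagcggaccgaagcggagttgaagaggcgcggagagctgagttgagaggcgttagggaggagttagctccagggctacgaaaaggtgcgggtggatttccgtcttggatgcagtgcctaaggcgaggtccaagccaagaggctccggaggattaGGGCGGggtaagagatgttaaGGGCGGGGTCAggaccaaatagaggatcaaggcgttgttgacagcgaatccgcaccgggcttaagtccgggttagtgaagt
Rab3d, chr9:21918134-21918433, minus strand: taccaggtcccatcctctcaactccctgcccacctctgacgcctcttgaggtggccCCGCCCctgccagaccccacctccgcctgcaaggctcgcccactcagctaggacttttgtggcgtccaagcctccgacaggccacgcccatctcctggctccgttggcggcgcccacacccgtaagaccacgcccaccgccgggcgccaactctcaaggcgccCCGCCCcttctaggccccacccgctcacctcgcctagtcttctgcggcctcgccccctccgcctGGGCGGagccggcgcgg

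The Rab1a and Rab3d windows each hold 3 GC boxes, and the Rab7 window holds 1 GC box and 1 CCAAT. The Rab43 window holds 2 GC boxes, of which 1 overlaps a match to TGACNNNGC on the other strand. A match is a run of letters and not a shown binding site. Counting any window of a gene, GGGCGG was in 29 of the 37 Rab genes (78.4%), against 38.2% of 27025 genes with a window and 68.2% of the 9426 of them tested here. CCAAT was in 21 (56.8%, against 41.1% and 43.1%), TGACNNNGC in 7 (18.9%, against 14.0% and 17.1%) and CACGTG in 6 (16.2%, against 8.09% and 11.9%). The CACGTG genes were Rab5a, Rab20, Rab21, Rab23, Rab24 and Rab27a. Of these, Rab27a was called with lysate, lower in both genotypes, beside 21.5% (wild type) and 15.2% (KO-labelled) of all genes. With the GC and length trend removed, Rab20 was also called, higher in wild-type cells, and Rab21, lower in KO-labelled cells. Of all genes 29.6% (wild type) and 26.2% (KO-labelled) were called there. So few genes say nothing about the motif.

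Some Rab counts may hold reads of a neighbour, since the counting has no stated strand setting. Genes with a value of their own that overlap a Rab gene in the annotation are Pmel with Rab5b, Cd300lf with Rab37, Mrpl48 with Rab6a, Tox4 with Rab2b and Rab10os with Rab10. Pmel, a melanosome protein, went from 5.50 and 5.48 to 6.06 and 6.35 with lysate in wild-type cells, and Rab5b was at 11.23 and 11.24 alone and 11.04 and 11.11 with lysate. Among the Rab genes called, non-coding RNAs overlap Rab1a, Rab7, Rab11b and Rab12, and pseudogenes overlap Rab40c and Rab44. Non-coding RNAs also overlap other Rab genes, among them Rab8b, Rab20 and Rab36. Close paralogues such as Rab1a and Rab1b, or Rab5a, Rab5b and Rab5c, could share reads, and the handling of such reads is unstated.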

How the data were processed

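RNA-seq libraries were made with a stranded mRNA kit, per the labels' protocols. Of 12 samples in the series, 8 were RNA-seq libraries with a column in the deposited table, and 4 immunoprecipitation samples were not analysed here. The deposited values are log2 values per Entrez gene, between 3.24 and 17.88 with library medians of 8.53 to 8.55. They were read as the regularized logarithm of DESeq2 from the name of the table and that tool in the submitters' processing notes, which also name STAR, deepTools and the build mm9 with no versions. Counter, strand setting, annotation and filter: not given in the sources used here. Without counts the depth is unknown, and counting error cannot be stated.

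Of the identifiers 11744 matched a symbol in RefSeq's GRCm38.p6 annotation and 42 did not. Since the submitters name another build, it was used for names and promoter windows alone. Transcript length and GC content are of the longest GENCODE M21 transcript of each Entrez gene among those with a RefSeq NM or NR record. A gene was tested where a group mean reached 4 (1 removed, 11785 left). The test was two-sided, by limma 3.58.1 under R 4.3.3, using lmFit and eBayes with trend, on the means of 4 groups, with 4 residual and 9.33 prior degrees of freedom. The script was tested on simulated data. The Rab genes and all lists were chosen with earlier results of these data known. Every Rab gene called, the 5 highest and lowest in level, paralogues of the same number and the ends of each comparison are named, with up to 5 called machinery genes in each direction. Alternatives were scaling, filters, variance settings, a replicate block, removal of a GC and length trend, only the groups compared, and each library left out. Sequences are RefSeq's, and figures were drawn with Python 3.11.15 and matplotlib 3.10.9.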

Additional observations from a re-analysis of the deposited data

How the results depend on the processing

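Of the 23 calls on Rab genes, 8 were kept under every alternative, namely Rab7b with lysate in both genotypes, Rab1a and Rab43 with lysate in wild type, Rab26 in both treatments, and Rab3d and Rab44 alone, and 0 changed direction. Removal of the GC and length trend moved the Rab counts from 10 to 17 (lysate in wild type), 6 to 16 (lysate in KO-labelled), 4 to 12 (genotype alone) and 3 to 12 (genotype with lysate), and the count over all genes for the difference of the lysate effects from 13 to 140. With the replicate block added to it they were 16, 15, 12, 11 and 111, and Rab2a lost its wild-type call (adjusted p = 0.0647). The replicate block by itself moved the first count from 10 to 6, losing Rab2a, Rab12, Rab34 and Rab40c, and it cost Rab8a and Rab11b their calls in KO-labelled cells. Differences between replicates 1 and 2 correlated across genes at -0.61 to 0.26 between groups, so the numbers were not taken as pairs. The -0.61 was between wild-type and KO-labelled cells alone, so their replicate differences were linked with opposite sign. A block on equal numbers does not take up such a link, and its source was not tested. With only the groups compared, the genotype count with lysate was 7. Leaving out 1 library gave 4 to 14, 1 to 7, 3 to 6 and 1 to 5 Rab genes in the order above, and 0 throughout for the interaction. The cause was not tested.

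Several uncalled differences changed sign. With the GC and length trend removed, with or without the replicate block, the lysate change in KO-labelled cells was -0.063 for Rab11a, 0.067 for Rab1b, -0.00094 for Rab2a and 0.014 for Rab40c, and that of Rab1b in wild type was 0.035. Leaving out 1 library, the lysate change in KO-labelled cells ran from -0.17 to 0.21 for Rab11a, from -0.14 to 0.11 for Rab1b, from -0.065 to 0.14 for Rab2a, from -0.12 to 0.052 for Rab40c and from -0.25 to 0.0064 for Rab8b. That of Rab1b in wild type ran from -0.16 to 0.052, and the genotype difference of Rab3a alone from -0.18 to 0.019. Without counts, how far depth limits the 5 low genes could not be given.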
